A study of Mus musculus with 6 samples.

Results

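Claudins are the membrane proteins that form the strands of the tight junction, and 10 of them, chosen by gene symbol from the 23873 rows of the deposited table, are described here in mouse kidneys with activated Notch2. They are Cldn1, Cldn2, Cldn3, Cldn4, Cldn6, Cldn7, Cldn8, Cldn10, Cldn16 and Cldn19, and all 10 were matched. RNA was measured in 6 libraries of whole kidney from mice 8 weeks old, in 2 groups of 3. The first group is labelled R26NICD2/+pax8cre, for a Rosa26 allele carrying the Notch2 intracellular domain, which acts in the nucleus without ligand, together with a Cre driven by Pax8, a gene of the renal tubule epithelium. The series title names the driver as Pax-rtTA, and which driver was used is not settled by the labels. The second group is labelled wild type, but its library titles begin with NICD, so whether these mice carried the allele without the driver is not settled either. The question named in the series title is cyst growth under Notch2 activation.

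Each claudin either seals the path between neighbouring cells or forms a pore in it for ions or water, and the set present in a segment of the nephron gives that segment its leakiness. Cldn2 is the cation and water pore of the proximal tubule and thin descending limb. Cldn10 has an isoform in the proximal tubule that favours anions and another in the thick ascending limb that favours cations. Cldn16 and Cldn19 act together in the thick ascending limb, where calcium and magnesium are reclaimed between cells. Cldn8 is a barrier claudin of the distal nephron and a partner of Cldn4 in the collecting duct. Cldn2, Cldn8, Cldn10, Cldn16 and Cldn19 were taken as segment-restricted. Cldn1, Cldn3, Cldn4, Cldn6 and Cldn7 were taken as injury-type, a name used here for claudins of sealing epithelia that are not markers of a single transporting segment. Cldn1 is found in the parietal cells of Bowman's capsule, Cldn6 in embryonic epithelia, and Cldn3, Cldn4 and Cldn7 are also normal constituents of the distal nephron and collecting duct, so the name is a label and not a measurement.

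Levels were given as FPKM, which divides fragments by transcript length and library size, so that levels of different genes can be compared per length. A depth of 15900000, 17000000 and 17600000 fragments in R26NICD2/+pax8cre replicates 1 to 3 and of 14800000, 14900000 and 15200000 in wild-type replicates 1 to 3 was estimated from the steps between low values. The row NOTCH2, which has no annotation in the file, stood at 500 to 570 FPKM in R26NICD2/+pax8cre and at 1.27 to 3.75 FPKM in wild type. Wild-type replicate 1 stood apart, with 5 adrenal markers summing to 3629 FPKM there and to no more than 1.63 FPKM in any other library. The 4 fat markers also summed highest in that library, at 4170 FPKM. They summed to 861 and 149 FPKM in wild-type replicates 2 and 3, and to 61.7 to 394 FPKM in R26NICD2/+pax8cre. R26NICD2/+pax8cre replicate 2 kept the most proximal tubule RNA of its group, with 10 markers summing to 532 FPKM against 156.5 and 387 FPKM in replicates 1 and 3. No label states that each library is another animal, and p-values then reflect only how these libraries vary, which may be technical. Genes reaching 1 FPKM in 3 libraries or more were tested with limma on log2(FPKM + 1), and a Benjamini-Hochberg adjusted p under 0.05 over all 13500 of them was called. Over all tested genes the log2 fold change had a median of 0.32 on FPKM as deposited and 0.00 after median-of-ratios scaling, so the scaled value is given beside the log2 fold change of each claudin.

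Of the 10 claudins 8 were called, where 61.4% of all tested genes were, or 54.6% after scaling. All 5 injury-type claudins rose in R26NICD2/+pax8cre kidneys, where 45.1% of all tested genes were called higher. Of the 5 segment-restricted claudins, Cldn10 and Cldn16 fell, Cldn8 rose, and Cldn2 and Cldn19 did not pass the test, where 16.2% of all tested genes were called lower. After median-of-ratios scaling the same 6 claudins rose and the same 2 fell, with 27.6% and 27.0% of tested genes called higher and lower. In the authors' deposited table the same 6 and 2 passed a q of 0.05, where 42.8% of 19439 genes did, 21.3% higher and 21.5% lower. The libraries of the 2 groups did not overlap for 8 of the 10 claudins, as for 68.7% of tested genes, with 6 above and 2 below in R26NICD2/+pax8cre against 49.9% and 18.8%. Leaving out wild-type replicate 1 or R26NICD2/+pax8cre replicate 2 left 6 higher and 2 lower. Leaving out any of the other 4 libraries left 1 lower, Cldn16 no longer being called, and without wild-type replicate 2 there were 7 higher, Cldn19 being added. With 1 library left out, 5156 to 6661 of all 13500 tested genes were called higher and 1826 to 2276 lower. All 10 claudins passed the filter on low values. Of the wild-type libraries Cldn6 reached 1 FPKM only in replicate 3, at 1.02 FPKM. It thus passed through its level in R26NICD2/+pax8cre, and its call adds no support to these counts.

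**Figure D1:**
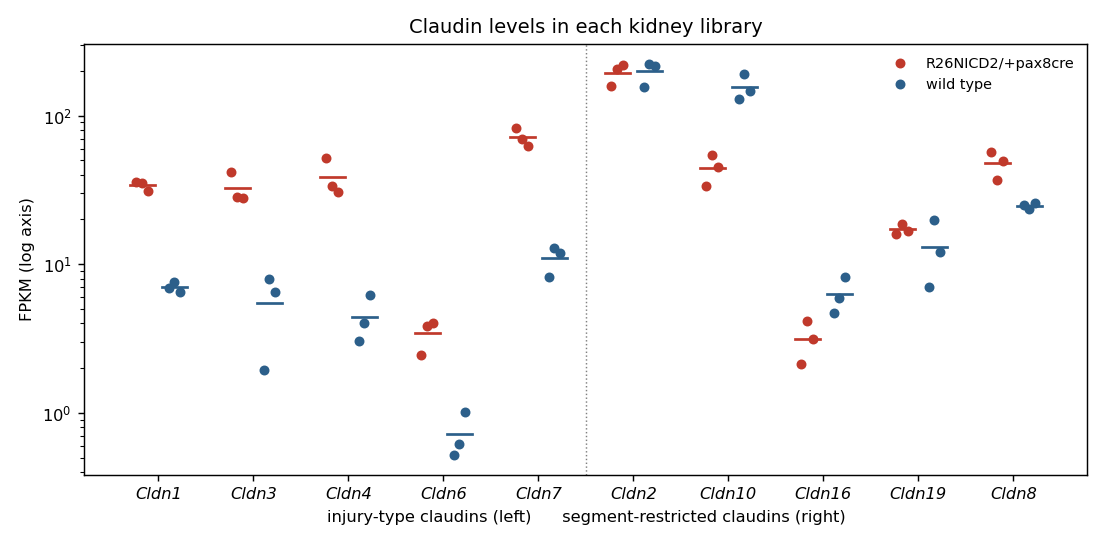
FPKM of each claudin on a log axis, with 1 point per library and a line at the mean of 3 libraries, R26NICD2/+pax8cre left of wild type. For Cldn1, Cldn3, Cldn4, Cldn6, Cldn7 and Cldn8 the lowest R26NICD2/+pax8cre library lies above the highest wild-type library, and for Cldn10 and Cldn16 the order is the reverse.

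Cldn4 (gene 12740, chromosome 5, 134945123 to 134946934), which with Cldn8 forms a chloride path in the collecting duct, stood at 51.4, 33.6 and 30.8 FPKM in R26NICD2/+pax8cre replicates 1 to 3, against 3.06, 4.0 and 6.25 FPKM in wild-type replicates 1 to 3. Every R26NICD2/+pax8cre library lay far above every wild-type library, and replicate 1 was the highest. The mean was 38.6 ± 11.2 FPKM in R26NICD2/+pax8cre against 4.44 ± 1.64 FPKM in wild type (SD, n = 3 each), an 8.70-fold rise, which ranged from 7.26 to 10.9 when any 1 library was left out. It was the highest log2 fold change of the 10 claudins, 2.87 (SE 0.27, adjusted p = 0.000222), or 2.53 after scaling.

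Cldn3 (gene 12739, chromosome 5, 134986214 to 134987476), a sealing claudin, lies 39280 bases from Cldn4 on the opposite strand, with no other known gene of the file between them. It stood at 41.8, 28.2 and 27.9 FPKM in R26NICD2/+pax8cre and at 1.94, 7.99 and 6.52 FPKM in wild type, with the groups apart and wild-type replicate 1 the lowest library. The mean was 32.6 ± 7.96 FPKM in R26NICD2/+pax8cre against 5.48 ± 3.16 FPKM in wild type (SD, n = 3 each), a 5.95-fold rise. Its log2 fold change was 2.50 (SE 0.42, adjusted p = 0.00222), the widest error of the injury-type claudins, and 2.15 after scaling. Outside the pair, Mettl27, 2486 bases from Cldn4, had a log2 fold change of 0.53 (adjusted p = 0.0249), and Abhd11, 21676 bases from Cldn3, one of -0.25 (adjusted p = 0.123).

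Cldn7 (gene 53624, chromosome 11, 69964779 to 69967886), a claudin of the basolateral membrane as well as the junction, reached the highest level of the injury-type claudins. It stood at 82.3, 69.7 and 62.3 FPKM in R26NICD2/+pax8cre and at 8.24, 12.8 and 11.9 FPKM in wild type. The groups were widely apart, at 71.4 ± 10.1 FPKM in R26NICD2/+pax8cre against 10.97 ± 2.40 FPKM in wild type (SD, n = 3 each). This 6.51-fold rise was 2.61 on the log2 scale (SE 0.18, adjusted p = 8.94e-05), and 2.24 after scaling. Elp5, 338 bases from it on the opposite strand, also rose (log2 fold change 0.56, adjusted p = 0.00259). The annotated spans of Elp5 and Cldn7 do not overlap. Counting by strand is not stated, and whether reads of the pair were shared was not tested.

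Cldn1 (gene 12737, chromosome 16, 26356645 to 26371839), needed for the barrier of the epidermis, was the most even of the injury-type claudins within groups. It stood at 35.7, 35.4 and 31.1 FPKM in R26NICD2/+pax8cre and at 6.96, 7.59 and 6.53 FPKM in wild type. Its 4.85-fold rise in mean FPKM was 2.13 on the log2 scale (SE 0.11, adjusted p = 3.64e-05), and 1.77 after scaling. About 1699 to 1865 fragments stood behind each R26NICD2/+pax8cre value and 308 to 351 behind each wild-type value.

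Cldn6 (gene 54419, chromosome 17, 23679348 to 23682446), a claudin of embryonic epithelia, was the lowest claudin in wild type. It stood at 2.45, 3.83 and 4.03 FPKM in R26NICD2/+pax8cre, against 0.52, 0.62 and 1.02 FPKM in wild type. The groups did not overlap, at 3.44 ± 0.860 FPKM in R26NICD2/+pax8cre against 0.720 ± 0.265 FPKM in wild type (SD, n = 3 each), and the log2 fold change was 1.36 (SE 0.20, adjusted p = 0.00119), or 1.13 after scaling. Its mean FPKM rose 4.77-fold, and with 0.1 in place of 1 FPKM added before taking logs the log2 fold change was 2.12, since the larger addition understates changes of low genes. Cldn9, which lies 138 bases away on the opposite strand, stood at 0.09 to 0.10 FPKM in R26NICD2/+pax8cre and at 0 to 0.05 FPKM in wild type.

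The cells that supply these transcripts cannot be read from whole kidney, in which fewer cells of a type and less RNA per cell cannot be told apart. Of 11 tubular injury genes 11 were called higher, where 45.1% of all tested genes were, and 10 after scaling, where 27.6% were. Without wild-type replicate 1, 10 of the 11 were called higher, where 6661 of all 13500 tested genes were. Havcr1 and Sox9 of this list, named after their values were seen, passed the filter on low values only through R26NICD2/+pax8cre. The list had a summed level of 9613 to 14980 FPKM in R26NICD2/+pax8cre against 610 to 923 FPKM in wild type. Spp1 made up most of this sum, at 8549 to 13104 FPKM in R26NICD2/+pax8cre and 421 to 640 FPKM in wild type. Of the principal cell list, which marks the collecting duct where Cldn3, Cldn4 and Cldn7 are also found, 3 of 8 genes rose and 3 fell, against 45.1% and 16.2% of all tested genes, and after scaling 3 rose and 5 fell, against 27.6% and 27.0%. Of these 8, 1 passed the filter only through R26NICD2/+pax8cre. The summed level of the list was 183 to 227 FPKM in R26NICD2/+pax8cre against 229 to 309 FPKM in wild type. Macrophage markers summed to 1119 to 1585 FPKM in R26NICD2/+pax8cre against 272 to 481.5 FPKM in wild type. Most of that sum was Cd74, at 935 to 1327 FPKM in R26NICD2/+pax8cre and 230 to 339 FPKM in wild type. Of these 5 markers 3 were called higher, where 45.1% of all tested genes were. Csf1r and Adgre1 did not pass the limma test (adjusted p = 0.751 and 0.389). The part of these lists in the rise of the claudins was not tested.

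Among the claudins of the thick ascending limb, Cldn10 and Cldn16 fell, and Cldn19 did not pass the test. Cldn10 (gene 58187, chromosome 14, 118787871 to 118874525) stood at 33.4, 54.4 and 45.3 FPKM in R26NICD2/+pax8cre, against 130, 191 and 145 FPKM in wild type. Every R26NICD2/+pax8cre library lay below every wild-type library, at 44.4 ± 10.5 FPKM in R26NICD2/+pax8cre against 155.6 ± 32.0 FPKM in wild type (SD, n = 3 each). The log2 fold change was -1.79 (SE 0.21, adjusted p = 0.000565), and -2.17 after scaling. The row pools 6 transcripts from 2 annotated start regions, so the isoforms of the proximal tubule and of the thick ascending limb were not separated.

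Cldn16 (gene 114141, chromosome 16, 26463135 to 26482765), whose loss causes wasting of magnesium and calcium in people, stood at 2.13, 4.14 and 3.14 FPKM in R26NICD2/+pax8cre, against 4.73, 5.94 and 8.17 FPKM in wild type. The groups did not overlap but lay close, with the highest R26NICD2/+pax8cre value 4.14 FPKM and the lowest wild-type value 4.73 FPKM. The log2 fold change was -0.82 (SE 0.24, adjusted p = 0.0228), and -1.12 after scaling. The call was lost without wild-type replicate 2 (adjusted p = 0.0565), without wild-type replicate 3 (adjusted p = 0.0674), without R26NICD2/+pax8cre replicate 1 (adjusted p = 0.0629) and without R26NICD2/+pax8cre replicate 3 (adjusted p = 0.0573), and over all alternatives its adjusted p ran from 0.00571 to 0.0674. These values rest on few reads, about 35 to 73 fragments per R26NICD2/+pax8cre library and 72 to 128 per wild-type library.

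Cldn19 (gene 242653, chromosome 4, 119255441 to 119262438), the partner of Cldn16 in the same strands, stood at 15.9, 18.7 and 16.8 FPKM in R26NICD2/+pax8cre and at 7.08, 19.9 and 12.1 FPKM in wild type. The R26NICD2/+pax8cre libraries lay close together inside the wider wild-type range. The log2 fold change was 0.48 (SE 0.32, 95% interval -0.28 to 1.24, adjusted p = 0.234), and 0.12 after scaling. Without wild-type replicate 2 it was 0.82 and called higher (adjusted p = 0.0264), and with scaling but without wild-type replicate 1 it was -0.27 (adjusted p = 0.272). Of 7 other markers of this segment 5 fell and 0 rose, where 16.2% of all tested genes fell, and 6 fell after scaling, where 27.0% did. Their summed level was 1051 to 1722 FPKM in R26NICD2/+pax8cre against 1145 to 2313 FPKM in wild type. Most of it was Umod, the urinary protein uromodulin, at 964 to 1611 FPKM in R26NICD2/+pax8cre and 658 to 1498 FPKM in wild type (log2 fold change 0.31, adjusted p = 0.455), while Slc12a1 fell 11.2-fold. The part of these markers in the values of the 3 claudins was not tested.

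Cldn2 (gene 12738, chromosome X, 139800808 to 139811386) was the most abundant claudin in both groups. It stood at 159, 205 and 219 FPKM in R26NICD2/+pax8cre and at 156, 223 and 215 FPKM in wild type, and the groups overlapped fully. The log2 fold change was -0.02 (SE 0.19, 95% interval -0.47 to 0.42, adjusted p = 0.917). After scaling it was -0.40 (95% interval -0.94 to 0.13, adjusted p = 0.167), and with scaling but without wild-type replicate 1 it was -0.62 and called lower (adjusted p = 0.0230). All 10 markers of the proximal tubule fell, where 16.2% of all tested genes did, and all 10 after scaling, where 27.0% did. Their summed level was 156.5 to 532 FPKM in R26NICD2/+pax8cre against 3127 to 4561 FPKM in wild type. Of these 10 markers, Slc22a8 reached 1 FPKM in R26NICD2/+pax8cre only in replicate 2. It thus passed the filter on low values through wild type, and its call adds no support to the count. The part of these markers in the values of Cldn2 was not tested.

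Cldn8 (gene 54420, chromosome 16, 88560826 to 88563183) was the segment-restricted claudin that rose. It stood at 57.2, 36.7 and 49.6 FPKM in R26NICD2/+pax8cre, against 25.1, 23.4 and 25.8 FPKM in wild type, with the groups apart. The mean of 47.8 ± 10.3 FPKM in R26NICD2/+pax8cre against 24.8 ± 1.24 FPKM in wild type (SD, n = 3 each) was a 1.93-fold rise, 0.90 on the log2 scale (SE 0.17, adjusted p = 0.00326). After scaling the log2 fold change was 0.53 (adjusted p = 0.0328), and with scaling but without wild-type replicate 1 it was 0.49 and no longer called (adjusted p = 0.0699). All 6 markers of the distal convoluted tubule fell, where 16.2% of all tested genes did, and all 6 after scaling, where 27.0% did. Their summed level was 38.9 to 66.5 FPKM in R26NICD2/+pax8cre against 377 to 498 FPKM in wild type. Of these 6 markers, Pvalb reached 1 FPKM in R26NICD2/+pax8cre only in replicate 2. It thus passed the filter on low values through wild type, and its call adds no support to the count. Without R26NICD2/+pax8cre replicate 2, 5 of the 6 fell, where 1935 of all 13500 tested genes did. Of the 8 principal cell markers of the collecting duct 3 rose and 3 fell, and after scaling 3 rose and 5 fell. Of all tested genes 45.1% rose, and 27.6% after scaling. The part of either list in the rise of Cldn8 was not tested.

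**Figure D2:**
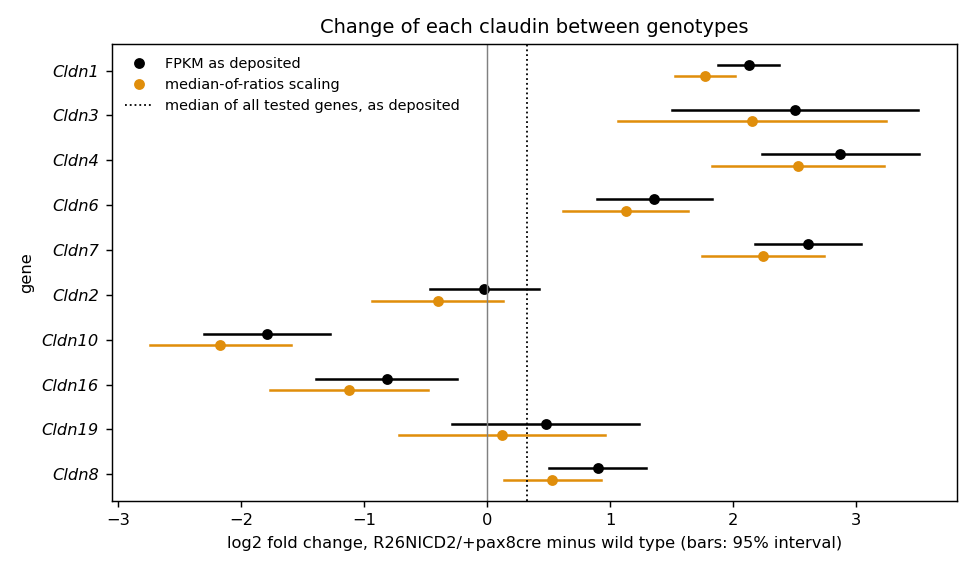
Log2 fold change of each claudin, R26NICD2/+pax8cre minus wild type, on log2(FPKM + 1), with 95% intervals from limma on FPKM as deposited (black) and after median-of-ratios scaling (orange). The 5 injury-type claudins lie to the right of the dotted median of all tested genes on both scales, while the intervals of Cldn2 and Cldn19 cross 0 on both.

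The order of the levels changed with genotype. In R26NICD2/+pax8cre kidneys the order was Cldn2, Cldn7, Cldn8, Cldn10, Cldn4, Cldn1, Cldn3, Cldn19, Cldn6 and Cldn16, where the 5 neighbours from Cldn8 to Cldn3 overlapped in sequence, as did Cldn6 and Cldn16. In wild-type kidneys it was Cldn2, Cldn10, Cldn8, Cldn19, Cldn7, Cldn1, Cldn16, Cldn3, Cldn4 and Cldn6, where Cldn2 overlapped with Cldn10, Cldn19 with Cldn7, and each neighbour from Cldn1 to Cldn4 with the next. Cldn7 held rank 2 in R26NICD2/+pax8cre against rank 5 in wild type, and Cldn10 held rank 4 in R26NICD2/+pax8cre against rank 2 in wild type.

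The summed level of the 10 claudins differed by less than the spread between wild-type libraries, at 487 ± 4.65 FPKM in R26NICD2/+pax8cre against 426 ± 77.3 FPKM in wild type (SD, n = 3 each), while its make-up differed. Injury-type claudins gave 44.4%, 34.9% and 31.9% of the sum in R26NICD2/+pax8cre replicates 1 to 3, against 6.03%, 6.63% and 7.35% in wild-type replicates 1 to 3. Cldn2 and Cldn10 together gave 40.0%, 53.0% and 53.9% in R26NICD2/+pax8cre and 83.2%, 83.5% and 82.1% in wild type. Cldn10 alone gave 9.10% ± 2.10 in R26NICD2/+pax8cre against 36.5% ± 2.90 in wild type, and Cldn7 gave 14.7% ± 2.22 in R26NICD2/+pax8cre against 2.56% ± 0.16 in wild type (SD, n = 3 each). The classes had median log2 fold changes of 2.50 for the injury-type and -0.02 for the segment-restricted claudins, against 0.32 for all tested genes, and 2.15, -0.40 and 0.00 after scaling. The difference between the classes was given no test, because the split was chosen with earlier results of these data known.

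**Figure D3:**
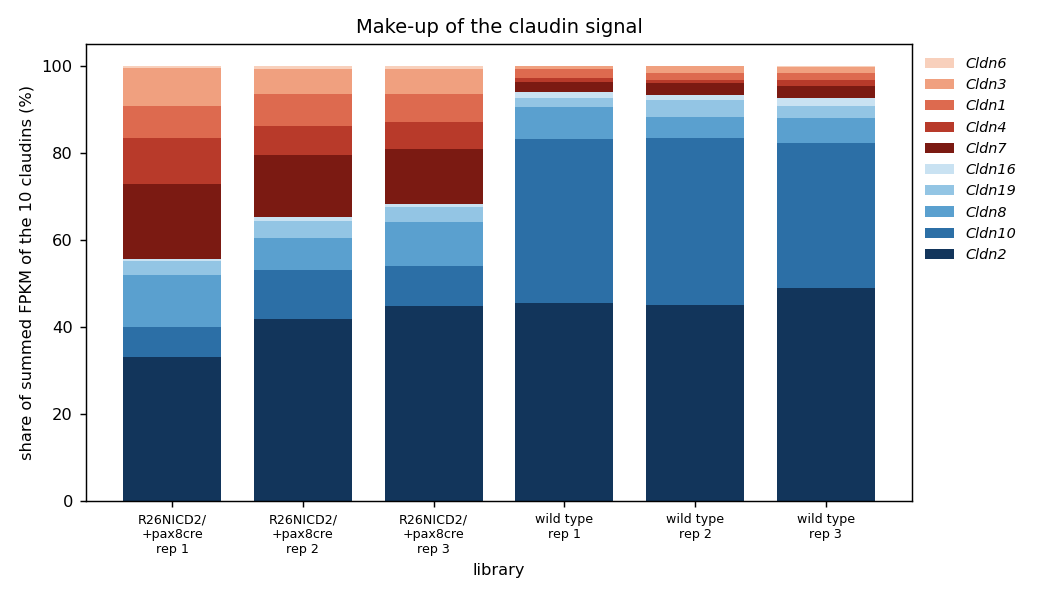
Share of the summed FPKM of the 10 claudins taken by each, in percent, 1 bar per library with R26NICD2/+pax8cre left of wild type, segment-restricted claudins in blue and injury-type in red. The red part is 31.9% to 44.4% in R26NICD2/+pax8cre libraries and 6.03% to 7.35% in wild-type libraries, and R26NICD2/+pax8cre replicate 1 has the largest.

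Ratios of plain FPKM between 2 transcripts of the same library do not depend on scaling between libraries. Adding 1 FPKM to each brings back some dependence for low genes such as Cldn16. Ratios of 10 pairs were compared, each as log2 of (FPKM + 1) over (FPKM + 1). In 9 of the 10 the groups did not overlap. With 3 libraries against 3 the exact two-sided permutation test cannot go below p = 0.10, the value of each of these 9, or 0.111 adjusted over the 10, so none can pass 0.05. Cldn16 to Cldn19, the partners of the thick ascending limb, stood at -2.44, -1.94 and -2.10 in R26NICD2/+pax8cre against -0.50, -1.59 and -0.51 in wild type, a difference of -1.29, or -0.83 with a pseudocount of 5. The groups were apart, as they were for 27.2% of all tested genes set against Cldn19. Cldn16 was therefore lower relative to its partner in each R26NICD2/+pax8cre library than in any wild-type library.

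Against Slc12a1, the salt cotransporter of the thick ascending limb, all 3 claudins of that segment were higher in R26NICD2/+pax8cre. The log2 ratio differed by 1.55 for Cldn10, by 2.53 for Cldn16 and by 3.82 for Cldn19. Slc12a1 itself stood at 7.71 to 21.0 FPKM in R26NICD2/+pax8cre and at 75.1 to 236 FPKM in wild type, and 97.1% of all tested genes were apart when set against it, so a separation here is not particular to claudins. The same holds for Cldn2 against the phosphate cotransporter Slc34a1, which differed by 4.24 where 99.0% of genes were apart. Cldn2 against the water channel Aqp1, which shares its segments, stood at 1.29, 0.55 and 0.60 in R26NICD2/+pax8cre and at -0.17, -0.43 and -0.33 in wild type, where 75.9% of genes were apart.

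In the distal nephron Cldn8 was higher against Scnn1a, a subunit of the epithelial sodium channel, in R26NICD2/+pax8cre. The difference was 1.44 on the log2 scale, where 69.5% of genes were apart. Scnn1a itself fell (log2 fold change -0.54), while the subunits Scnn1b and Scnn1g rose by more than Cldn8 (1.20 and 1.54 against 0.90). The direction of this ratio therefore depends on the subunit chosen. Cldn4 to Cldn8 stood at -0.15, -0.13 and -0.67 in R26NICD2/+pax8cre and at -2.69, -2.29 and -1.89 in wild type. The partners were thus closer in level in R26NICD2/+pax8cre than in wild type, with Cldn4 below Cldn8 in every library. Cldn7 to Cldn8 differed by 1.71, and 61.1% of all tested genes were apart when set against Cldn8. Cldn3 to Cldn4 was the pair whose groups overlapped, at -0.29, -0.25 and -0.14 in R26NICD2/+pax8cre and -0.47, 0.85 and 0.05 in wild type (difference -0.37, exact permutation p = 0.50), although 94.9% of genes were apart when set against Cldn4. Its difference was -0.68 without wild-type replicate 1, where the groups did not overlap, and -0.02 without wild-type replicate 2.

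**Figure D4:**
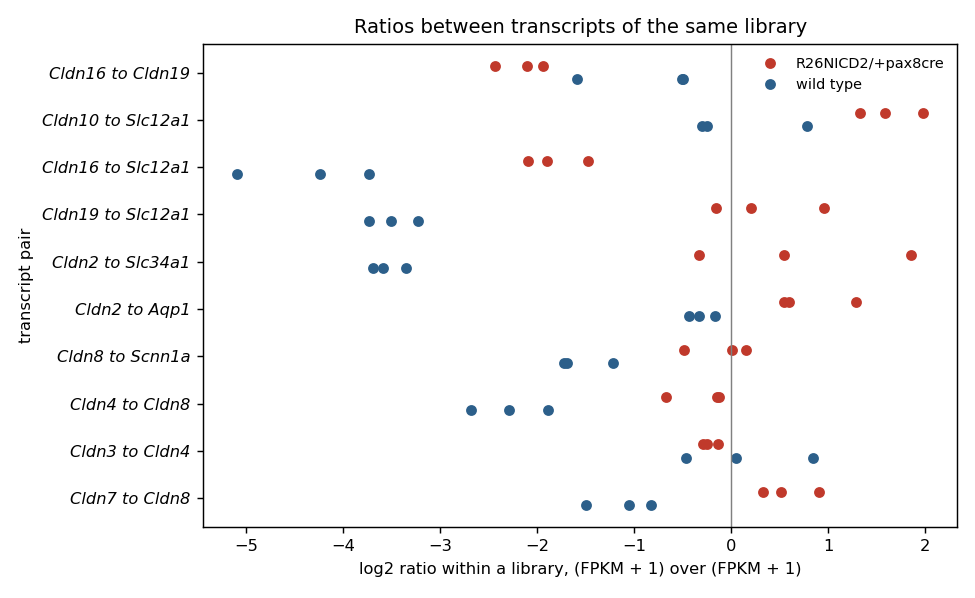
Log2 ratio of 2 transcripts within each library, (FPKM + 1) over (FPKM + 1), for 10 pairs, with R26NICD2/+pax8cre points above wild-type points. The groups are apart for every pair but Cldn3 to Cldn4, and of the pairs that are apart Cldn16 to Cldn19 is the one that is lower in R26NICD2/+pax8cre.

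Pairs of claudin genes lie next to each other in the genome, and their upstream sequences, the 250 bases before the annotated start, are shown for the neighbours that moved the same way (Cldn3 and Cldn4) and for the neighbours that moved in opposite directions (Cldn1 and Cldn16, 91296 bases apart). Sequences are from RefSeq and capitals mark a match to 1 of 4 motifs searched on both strands.
Cldn3 (GRCm38.p6, chr5:134985964-134986213, plus strand): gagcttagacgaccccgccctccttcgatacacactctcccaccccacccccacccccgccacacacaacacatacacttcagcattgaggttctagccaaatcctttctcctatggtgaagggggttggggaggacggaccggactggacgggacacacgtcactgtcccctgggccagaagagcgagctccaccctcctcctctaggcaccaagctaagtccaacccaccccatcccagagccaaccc
Cldn4 (GRCm38.p6, chr5:134946935-134947184, minus strand): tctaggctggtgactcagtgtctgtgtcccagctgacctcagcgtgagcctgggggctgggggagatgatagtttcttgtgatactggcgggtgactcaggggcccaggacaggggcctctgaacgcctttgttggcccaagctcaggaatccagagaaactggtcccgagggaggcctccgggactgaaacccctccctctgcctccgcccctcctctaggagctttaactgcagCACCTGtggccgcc
Cldn1 (GRCm38.p6, chr16:26371840-26372089, minus strand): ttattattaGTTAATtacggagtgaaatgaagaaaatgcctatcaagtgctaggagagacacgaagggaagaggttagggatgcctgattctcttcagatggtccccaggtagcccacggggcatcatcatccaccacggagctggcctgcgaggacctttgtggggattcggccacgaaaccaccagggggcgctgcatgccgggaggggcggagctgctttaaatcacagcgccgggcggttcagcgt
Cldn16 (GRCm38.p6, chr16:26462885-26463134, plus strand): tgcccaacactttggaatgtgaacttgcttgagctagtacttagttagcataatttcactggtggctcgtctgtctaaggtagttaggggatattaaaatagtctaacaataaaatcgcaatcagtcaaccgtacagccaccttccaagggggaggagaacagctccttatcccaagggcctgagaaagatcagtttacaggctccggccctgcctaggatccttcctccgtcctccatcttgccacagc
The motifs were GTGGGAA, the core bound by the Notch effector RBPJ, AACCGGTT, bound by grainyhead-like factors, GTTAAT, part of the site of HNF1 factors, and CAGGTG, an E-box bound by SNAI factors. No 2 matches overlapped in these windows. Windows were found for 9 of the 10 claudins, 12 in all.

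The RBPJ core was found in 0 of the 12 windows and in 5.42% of 32851 windows of all genes, and AACCGGTT in 0 of 12 and in 0.116%. CAGGTG was found in 3 of the 12 windows, upstream of Cldn4, Cldn6 and Cldn7, and in 17.2% of all windows. It lies 14 bases before the start of Cldn4, 93 before that of Cldn6, and 97 and 57 before the inner start of Cldn7. GTTAAT was found in 2 of the 12 windows, 241 bases before the start of Cldn1 and as its reverse complement 15 bases before the outer start of Cldn10, and in 6.43% of all windows. A match is a run of letters and not a measured binding site. Tmem207, the neighbour on the other side of Cldn16, stood at 0.167 FPKM in R26NICD2/+pax8cre against 5.15 FPKM in wild type on average (log2 fold change -2.17, adjusted p = 0.01001). With that mean no R26NICD2/+pax8cre library can have reached 1 FPKM. Tmem207 thus passed the filter on low values only through wild type, and its call adds no support to a pattern on this stretch.

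Genes whose pattern over the 6 libraries was most like that of each of the 8 called claudins were found by the root mean square difference of log2(FPKM + 1), centred on the mean. Cldn1 lay near Cenpw, a centromere protein, at a difference of 0.06. Cldn3 was nearest to Misp and to the simple epithelial keratin Krt8, at 0.20 and 0.29, and Cldn4 to Stap2 and the desmosome protein Dsp, at 0.12 and 0.20. Cldn7 was nearest to F2rl1, a receptor cleaved by proteases, and to Rbm3, at 0.09 each, and Cldn6 to Il5ra and Tmem254b, at 0.09 and 0.10. Cldn8 was nearest to Rcbtb1 and Rpl7, at 0.08 and 0.09, Cldn10 to Entpd5 and Suox, at 0.12 and 0.13, and Cldn16 to Abhd14a and Cyba, at 0.08 each. Cenpw and Il5ra, at 0.34 to 0.44 and 0.24 to 0.47 FPKM in wild type, passed the filter on low values only through R26NICD2/+pax8cre. With 6 libraries and 13500 genes such nearness describes these libraries only.

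Other rows of the claudin family were mostly near 0. Of 14 with values 3 passed the filter. Cldn15, a pore claudin best known from the intestine, fell to 2.55, 4.13 and 4.57 FPKM in R26NICD2/+pax8cre, against 10.5, 11.01 and 11.3 FPKM in wild type (log2 fold change -1.36, SE 0.18, adjusted p = 0.000869, and -1.68 after scaling). Cldn12 stood at 23.7 ± 0.214 FPKM in R26NICD2/+pax8cre and 21.5 ± 4.39 FPKM in wild type (SD, n = 3 each; adjusted p = 0.415). Cldnd1, a more distant relative, was called higher (log2 fold change 0.45, adjusted p = 0.0188) but not after scaling, where its log2 fold change was 0.09. Cldn5, the claudin of endothelium, was not analysed here.

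Of 30 tight junction genes other than claudins tested, 19 rose and 2 fell (63.3% and 6.67%), against 45.1% and 16.2% of all tested genes, with a median log2 fold change of 0.77 against 0.32. After scaling 15 rose and 6 fell, against 27.6% and 27.0% of all tested genes, with a median of 0.44. Without R26NICD2/+pax8cre replicate 2, 18 rose and 2 fell, where 5335 and 1935 of all 13500 tested genes did. Without wild-type replicate 1, 20 rose and 3 fell, where 6661 and 2276 of all 13500 did. Lsr, Cgn and Pard6b were among the 4 with the smallest p of those that rose. Lsr, which marks the corners where 3 cells meet, stood at 72.3, 78.5 and 69.3 FPKM in R26NICD2/+pax8cre against 14.2, 18.1 and 17.02 FPKM in wild type (log2 fold change 2.10, adjusted p = 5.09e-05, and 1.73 after scaling). Cgn, the cytoplasmic plaque protein cingulin, stood at 21.3 ± 3.32 FPKM in R26NICD2/+pax8cre against 4.17 ± 0.873 FPKM in wild type and the polarity protein Pard6b at 49.2 ± 3.10 FPKM in R26NICD2/+pax8cre against 13.2 ± 2.43 FPKM in wild type (SD, n = 3 each).

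The members that fell were Cgnl1 and Mpp5. Cgnl1, the paralogue of cingulin, stood at 17.8, 21.9 and 20.03 FPKM in R26NICD2/+pax8cre, against 50.1, 62.6 and 53.9 FPKM in wild type, with the groups apart (log2 fold change -1.43, SE 0.12, adjusted p = 0.000171). Cingulin and its paralogue thus moved in opposite directions, each also after scaling, at 1.77 for Cgn and -1.80 for Cgnl1. Mpp5, a polarity scaffold, stood at 9.97 ± 2.47 FPKM in R26NICD2/+pax8cre against 16.8 ± 2.48 FPKM in wild type (SD, n = 3 each; log2 fold change -0.71, adjusted p = 0.0155, and -1.06 after scaling). Occludin, the strand protein encoded by Ocln, was called higher (log2 fold change 0.90, adjusted p = 0.0136) but not after scaling.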

How the data were processed

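Total RNA of whole frozen kidneys went into Illumina TruSeq libraries, per the labels' protocols. The deposited table gave FPKM per library and mean FPKM per group, made by the authors, with log2 fold changes, p-values and q-values between the groups. Per the file headers the q-values are from DESeq2, and no tool is named for the deposited log2 fold changes and p-values. Log2 fold changes and p-values of single pairs of libraries were also deposited and not used. No source used here gives counts, strand handling or the counting tool. Bowtie 0.12.2 and mm8 stand in the submitters' processing notes, but all 10 claudins have the start and end of RefSeq on GRCm38, so coordinates are read as GRCm38. There were 0 further library columns.

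Of 23873 rows 4370 without values were left out. Tests used limma 3.58.1 in R 4.3.3 with a mean-variance trend, two-sided, fitting genotype alone, and ratios used exact permutation in scipy 1.17.1. Median-of-ratios factors came from tested genes above 0 in every library. The fit was tested on simulated data. Depth was estimated as the smallest depth at which low FPKM of genes with 1 transcript gave whole fragments, and 70.1% to 77.3% of values lay within 0.15 of a whole number. It serves only to show precision, for counting error only.

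The members and all lists were chosen with earlier results of these data known. Genes named were the 10 claudins, relatives past the filter, the 4 called genes of smallest p in each direction of the tight junction and regulator lists, the partners in the ratios, and the 2 nearest genes by pattern. Of the genes this rule names, 1 is not reported here. Neighbouring genes, Ocln and low relatives were named after their values were seen. Of the marker lists, intercalated cells had 6 of 6 lower and podocytes 4 of 5 lower and 1 higher. The intercalated cell genes Foxi1, Atp6v1g3, Slc4a1 and Slc26a4 reached 1 FPKM in R26NICD2/+pax8cre only in replicate 2. They thus passed the filter on low values through wild type, and their calls add no support to that count. Endothelium had 4 of 5 lower, thin limb 1 of 3 lower and macrophages 3 of 5 higher. Fat and adrenal cortex had 0 called by limma in either direction. Of all tested genes 45.1% were called higher and 16.2% lower.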

Additional observations from a re-analysis of the deposited data

How the results depend on the processing

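Of the 10 claudins, Cldn1, Cldn3, Cldn4, Cldn6, Cldn7 and Cldn10 kept their direction and stayed called under every alternative in which they were tested. These were pseudocounts of 0.1 and 5, no filter, a filter of 5 FPKM (under which Cldn6 and Cldn16 were not tested), median-of-ratios and upper quartile scaling, quantile normalization, the replicate block, each library left out, an adjusted p of 0.01, and 2 combinations. Claudins lower were 1 with the filter of 5 FPKM, 1 at an adjusted p of 0.01 and 1 to 2 with a library left out, against 2. Claudins higher were 5 to 7 in all. Cldn2 reversed to 0.14 with quantile normalization, 0.07 and 0.04 without wild-type replicate 2 or 3, and 0.11 without R26NICD2/+pax8cre replicate 1, and Cldn19 to -0.27 with scaling without wild-type replicate 1. The cause was not tested.

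The median log2 fold change of segment-restricted claudins, -0.02, was 0.23 with the filter of 5 FPKM, 0.12 with quantile normalization, -0.40 with median-of-ratios scaling (also with the block), -0.31 with upper quartile scaling, -0.62 with scaling without wild-type replicate 1, and -0.19 to 0.11 with a library left out. That of injury-type claudins, 2.50, was 1.87 with a pseudocount of 5, 2.15 with median-of-ratios scaling (also with the block), 2.20 with quantile normalization, 1.72 with scaling without wild-type replicate 1, and 2.12 to 2.72 with a library left out. Ratios whose groups did not overlap were 9 to 10.

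All genes called were 6095 higher and 2190 lower. They were 3725 and 3642 with median-of-ratios scaling (50.6% higher against 73.6%), 3866 and 3558 with quantile normalization, 4016 and 3936 with scaling without wild-type replicate 1, and 4143 and 4184 in the authors' deposited table. With a library left out they were 5156 to 6661 higher and 1826 to 2276 lower.

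Replicate numbers are shared between groups but are not said to pair libraries, and deviations of same-numbered libraries correlated at 0.10, -0.05 and 0.01. With the number as a replicate block 6 claudins were higher and 2 lower, and 5818 and 2164 of all genes. With scaling and the block 6 and 3 claudins were called, Cldn2 being lower (adjusted p = 0.0233), and 3482 and 3527 of all genes. The replicate block changed no difference of a ratio, and its sign-flip p cannot go below 0.25.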

Other observations

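Genes that regulate claudins or the barrier they form moved in both directions. Of 22 tested, 10 rose and 5 fell (45.5% and 22.7%), against 45.1% and 16.2% of all tested genes. After median-of-ratios scaling 8 rose and 8 fell (36.4% each), against 27.6% and 27.0% of all tested genes. Without wild-type replicate 1, 10 of the 22 rose and 6 fell, where 6661 and 2276 of all 13500 tested genes did. Of those that rose, Grhl1, Grhl3 and Elf5 passed the filter on low values only through R26NICD2/+pax8cre, so that their calls add no support to the count. Grhl2, a grainyhead-like factor that drives Cldn4 in epithelia, stood at 14.5, 9.67 and 10.1 FPKM in R26NICD2/+pax8cre against 2.04, 2.76 and 2.45 FPKM in wild type (log2 fold change 1.85, adjusted p = 0.000239, and 1.53 after scaling). Its relative Grhl3 stood at 7.11, 3.52 and 4.86 FPKM in R26NICD2/+pax8cre and was listed at 0, 0.31 and 0 FPKM in wild type. Elf3, an epithelial transcription factor, averaged 44.7 ± 7.31 FPKM in R26NICD2/+pax8cre against 7.15 ± 2.04 FPKM in wild type, and St14, the membrane protease matriptase, 50.5 ± 5.49 FPKM in R26NICD2/+pax8cre against 14.1 ± 2.97 FPKM in wild type (SD, n = 3 each).

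Among those that fell, Casr, the calcium-sensing receptor that restrains divalent transport in the thick ascending limb, stood at 1.11, 2.03 and 1.34 FPKM in R26NICD2/+pax8cre against 11.1, 14.9 and 13.3 FPKM in wild type (log2 fold change -2.50, adjusted p = 9.25e-05, and -2.79 after scaling). Pth1r, the receptor for parathyroid hormone, averaged 23.2 ± 12.4 FPKM in R26NICD2/+pax8cre against 280.3 ± 31.4 FPKM in wild type, and the kinase gene Wnk1 31.0 ± 0.550 FPKM in R26NICD2/+pax8cre against 68.2 ± 8.25 FPKM in wild type (SD, n = 3 each). Snai2, a repressor of epithelial genes, stood at 0.75 to 1.04 FPKM in R26NICD2/+pax8cre against 2.02 to 3.07 FPKM in wild type (log2 fold change -0.88, adjusted p = 0.00291, and -1.11 after scaling). Low claudin relatives under the filter were apart in some cases, with Cldn23 at 0.58 to 1.11 FPKM in R26NICD2/+pax8cre against 0 to 0.16 FPKM in wild type and Cldn18 at 0 to 0.02 FPKM in R26NICD2/+pax8cre against 0.18 to 0.26 FPKM in wild type.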
